A study of Mus musculus with 4 samples.

Results

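The genes of the major histocompatibility complex (MHC, called H2 in the mouse) and of antigen presentation were followed through 24 h of Ikaros activation in a mouse T-cell line. A gene was taken when its array symbol began with H2- or was 1 of 14 others (B2m, Tap1, Tap2, Tapbp, Psmb8, Psmb9, Psmb10, Nlrc5, Ciita, Cd74, Cd1d1, Erap1, Calr and Pdia3), and when it had a probe set that named no other gene. This gave 43 of 19938 genes, 29 of them with H2- symbols. They were 20 non-classical class I genes, 8 class II genes, 10 genes of the class I peptide supply and loading machinery, the 2 regulators Nlrc5 and Ciita, the class II chaperone Cd74, the lipid-presenting Cd1d1, and H2-Ke6, which lies in the H2 region but is known as a hydroxysteroid dehydrogenase gene. No classical class I gene had a probe set of its own, so H2-K1 and H2-D1 could be read only on probe sets that name both.

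ILC87 is a T-cell line from 1 thymic tumour of an Ikarosf/f Lck-cre+ mouse, in which Cre from the T-cell promoter of Lck removed Ikaros. The cells of both groups carried the MigR1:Ik1-ER retrovirus, which makes full-length Ikaros-1 fused to an oestrogen receptor fragment that responds to 4OHT, together with GFP, and had been sorted for GFP. They received 100 nM 4-hydroxytamoxifen (4OHT), which moves Ik1-ER into the nucleus, or its vehicle ethanol (EtOH), for 24 h, with 2 Affymetrix Gene ST arrays for each treatment. The labels give the strain as C57BL/6, while the methods describe such mice as mixed C57BL/6 and 129Sv, so H2 alleles may differ from the C57BL/6 reference used for names and promoters. The comparison asks which transcripts differed after Ikaros was activated in cells that lacked it, and since no array held 4OHT-treated cells without Ik1-ER, the effect of Ik1-ER and that of 4OHT itself cannot be told apart.

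Class I molecules pair with beta-2 microglobulin and show peptides that the proteasome cuts, the TAP transporter carries into the endoplasmic reticulum, and tapasin, calreticulin and Pdia3 help to load. Class II molecules are found mainly on B cells, dendritic cells, macrophages and thymic epithelium, where the invariant chain Cd74 guards the peptide groove and H2-DM loads it under restraint by H2-O. Nlrc5 and Ciita are the coactivators of class I and class II promoters, and mouse T cells normally keep class I high and most class II genes low. The non-classical class I genes of the Q, T and M families include Qa-1 (H2-T23), read by natural killer receptors, the thymus leukaemia antigen (H2-T3), the gamma-delta T-cell ligands H2-T10 and H2-T22, and H2-M3, which presents formylated bacterial peptides.

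The array values correlated at 0.9957 between the EtOH arrays, 0.9944 between the 4OHT arrays and 0.9888 to 0.9904 across treatments, and array medians were 7.114 to 7.163 on the log2 scale. All 8 measured T-cell genes of a marker list lay above the array medians on average, with a mean level of 11.6 on each EtOH array and of 11.4 and 11.5 on the 4OHT arrays. One of them passed the test. Cd3d, a chain of the CD3 complex, fell from 11.71 and 11.75 with EtOH to 10.73 and 10.85 with 4OHT (-0.94, adjusted p = 0.0172). In the list both 4OHT arrays lay below both EtOH arrays for 5 genes and above them for 3. Of all genes, 24.5% lay below and 32.1% above, and 2.99% were called lower. An unadjusted p under 0.05 was found for 7 of the 8, against 20.4% of all genes. The files hold no detection calls, so a low value may be background. Values were set against array medians only as a rough guide to dim signal, and no gene was ranked above another by its level. Of all 19938 genes, 9118 had both treatment means below the array medians. All values below are log2 expression values, and a gene was called at a Benjamini-Hochberg adjusted p under 0.05 over all probe sets in limma.

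Promoters of some H2 genes named below are shown to let the class I and class II patterns be seen side by side. Each run is the 250 bases before a RefSeq start on GRCm38.p6, read 5′ to 3′ in the direction of transcription. Such a window was available for 31 of the 43 members. H2-T10 and Cd74, which passed the test below, had none. Capitals mark ATTGG (the core of the Y box of MHC promoters), TTTCACTT (an interferon response core), TGACG (the core of a cyclic AMP element) and AGGAA (the motif named in the study for Ikaros), each on either strand. The windows are those of H2-T23 (chr17:36032702-36032951, minus strand), H2-T22 (chr17:36042743-36042992, minus strand) and H2-T3 (chr17:36190152-36190401, minus strand), which are named on shared probe sets with higher values, of H2-Oa (chr17:34092129-34092378, plus strand), which fell, of H2-Eb2 (chr17:34325425-34325674, plus strand), which rose, and of the classical gene H2-K1 (chr17:34000348-34000597, minus strand) for contrast.
H2-T23: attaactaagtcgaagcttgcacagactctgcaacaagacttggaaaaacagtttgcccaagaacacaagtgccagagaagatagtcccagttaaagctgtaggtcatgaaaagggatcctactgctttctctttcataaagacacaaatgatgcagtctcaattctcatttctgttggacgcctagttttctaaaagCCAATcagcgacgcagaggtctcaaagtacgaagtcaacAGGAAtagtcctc
H2-T22: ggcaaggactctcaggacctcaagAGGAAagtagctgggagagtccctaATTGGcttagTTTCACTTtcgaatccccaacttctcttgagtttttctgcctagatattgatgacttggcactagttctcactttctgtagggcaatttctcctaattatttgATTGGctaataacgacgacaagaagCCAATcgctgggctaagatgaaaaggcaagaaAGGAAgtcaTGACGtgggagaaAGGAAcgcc
H2-T3: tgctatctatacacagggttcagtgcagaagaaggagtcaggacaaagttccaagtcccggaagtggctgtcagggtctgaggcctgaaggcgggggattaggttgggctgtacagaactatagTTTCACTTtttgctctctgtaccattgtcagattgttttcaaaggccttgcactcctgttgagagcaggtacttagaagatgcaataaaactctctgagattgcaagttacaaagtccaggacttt
H2-Oa: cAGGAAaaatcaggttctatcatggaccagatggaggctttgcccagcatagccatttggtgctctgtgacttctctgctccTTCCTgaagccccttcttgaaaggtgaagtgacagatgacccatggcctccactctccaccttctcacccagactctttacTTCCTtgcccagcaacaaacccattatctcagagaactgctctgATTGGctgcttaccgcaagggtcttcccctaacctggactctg
H2-Eb2: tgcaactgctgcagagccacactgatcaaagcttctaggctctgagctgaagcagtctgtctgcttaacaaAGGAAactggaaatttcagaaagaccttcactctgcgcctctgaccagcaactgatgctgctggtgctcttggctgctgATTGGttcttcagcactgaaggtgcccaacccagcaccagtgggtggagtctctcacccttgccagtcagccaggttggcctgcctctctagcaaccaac
H2-K1: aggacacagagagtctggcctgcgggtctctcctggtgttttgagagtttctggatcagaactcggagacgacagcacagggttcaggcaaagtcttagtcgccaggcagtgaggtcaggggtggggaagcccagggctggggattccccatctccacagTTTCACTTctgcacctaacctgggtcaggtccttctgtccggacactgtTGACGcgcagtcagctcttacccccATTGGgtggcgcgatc

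The windows differed in what they held. The H2-K1 window carried TTTCACTT from -90 to -83, TGACG from -41 to -37 and ATTGG from -16 to -12, counted from the start of transcription. H2-T22 held all 4 motifs, with TTTCACTT from -191 to -184. H2-T3 held TTTCACTT from -126 to -119 and none of the other letters, and H2-T23 held ATTGG from -52 to -48 and AGGAA from -13 to -9 but neither of the other 2. H2-Oa and H2-Eb2 each held 1 ATTGG, from -43 to -39 and from -100 to -96, with AGGAA at 3 places in H2-Oa and at 1 in H2-Eb2.

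ATTGG was found in all 6 class II members with a window and in 13 of 15 non-classical members, against 33.8% of 32851 windows in the table. TTTCACTT was found in none of those 6 class II members and in 3 of those 15 non-classical members, against 1.36% of all windows. TGACG was in 1 of the 6 class II and 7 of the 15 non-classical members, against 17.8% of all windows. AGGAA was in 3 of the 6 and in 10 of the 15, against 60.3% of all windows. Of 9 members of the class I machinery, ATTGG was in 6, TTTCACTT in 0, TGACG in 4 and AGGAA in 1. Of 9 H2 genes named only on shared probe sets, ATTGG was in 8, TTTCACTT in 5, TGACG in 3 and AGGAA in 5. A gene counted once if any of its windows held the letters, whereas the shares of all windows count each window. These are counts of letters, and neither a hit nor its absence shows whether a factor binds.

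Of the 43 members, H2-T10 and H2-Eb2 rose, H2-Oa and Cd74 fell, and 39 did not pass the test. Over all 19938 genes, 1.23% were called higher and 2.99% lower. Both 4OHT arrays lay above both EtOH arrays for 20 members and below them for 6, against 32.1% and 24.5% of all genes, and overlapped for 17. An unadjusted p under 0.05 was found for 16 of the 43 members and for 20.4% of all genes, and a positive fold change for 30 members and 57.7% of all genes. The median log2 fold change of the members was 0.13, in a range of -0.68 to 0.96, and that of all genes was 0.03. The plot of fold changes shows the members by group.

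**Figure D1:**
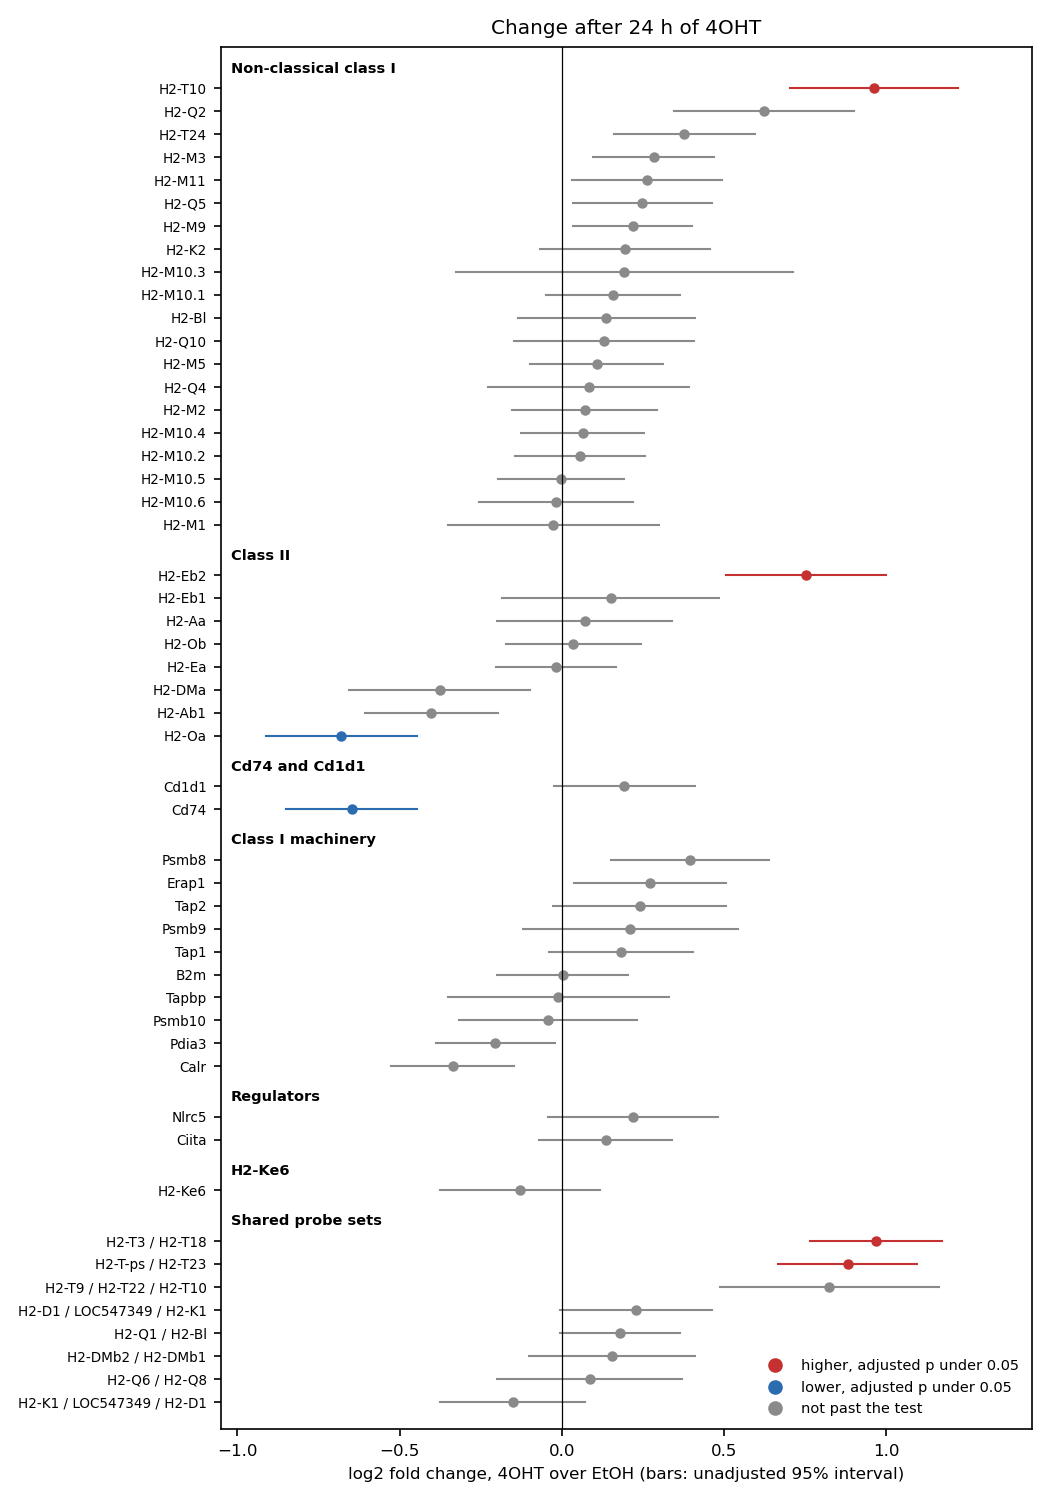
Log2 fold change (x axis, 4OHT over EtOH) of each of the 43 members by group, with the 8 shared H2 probe sets at the bottom. Points are limma estimates from 2 arrays a group, bars are unadjusted 95% intervals, red and blue points passed the test, and grey ones did not. H2-T10 and H2-Eb2 stood at 0.96 and 0.75, and H2-Oa and Cd74 at -0.68 and -0.65.

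Among the non-classical class I genes, H2-T10 had the largest change. It read 9.69 and 9.60 on the EtOH arrays and 10.51 and 10.71 on the 4OHT arrays. Both 4OHT arrays lay above both EtOH arrays by at least 0.819. The log2 fold change was 0.96 (SE 0.098, 95% interval 0.704 to 1.22), a 1.95-fold increase with a limma adjusted p of 0.0224. RefSeq lists H2-T10 as a transcribed pseudogene. The H2-T genes are close copies, and another probe set names H2-T10 together with H2-T9 and H2-T22, so the assignment to H2-T10 alone is uncertain.

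H2-Q2, a class I gene of the Q family, was the next. It read 8.31 and 8.30 with EtOH and 8.81 and 9.05 with 4OHT. The arrays did not overlap, but the log2 fold change of 0.62 missed the threshold at an adjusted p of 0.0623. H2-T24 (0.38, adjusted p = 0.105) and H2-M3 (0.28, adjusted p = 0.133) also had both 4OHT arrays above both EtOH arrays without passing the test, as did H2-M11 (0.26) and H2-Q5 (0.25).

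Of the 20 non-classical members, 1 rose and 19 did not pass, while 7 had an unadjusted p under 0.05, against the 20.4% of all genes. Both 4OHT arrays were above both EtOH arrays in 11 and in none below, with 9 overlapping, and 17 of the 20 fold changes were positive, against the 57.7% of all genes. The median was 0.15, against 0.03 for all genes. It was 0.67 for the 2 H2-T genes, 0.19 for 4 H2-Q genes, 0.16 for 6 H2-M genes and 0.06 for 6 H2-M10 genes, which are known for expression with vomeronasal receptors. In 13 of the 20 both treatment means lay below the array medians, against 9118 of all 19938 genes. The member with the lowest fold change, H2-M1, read 5.16 and 5.11 with EtOH and 4.95 and 5.26 with 4OHT.

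**Figure D2:**
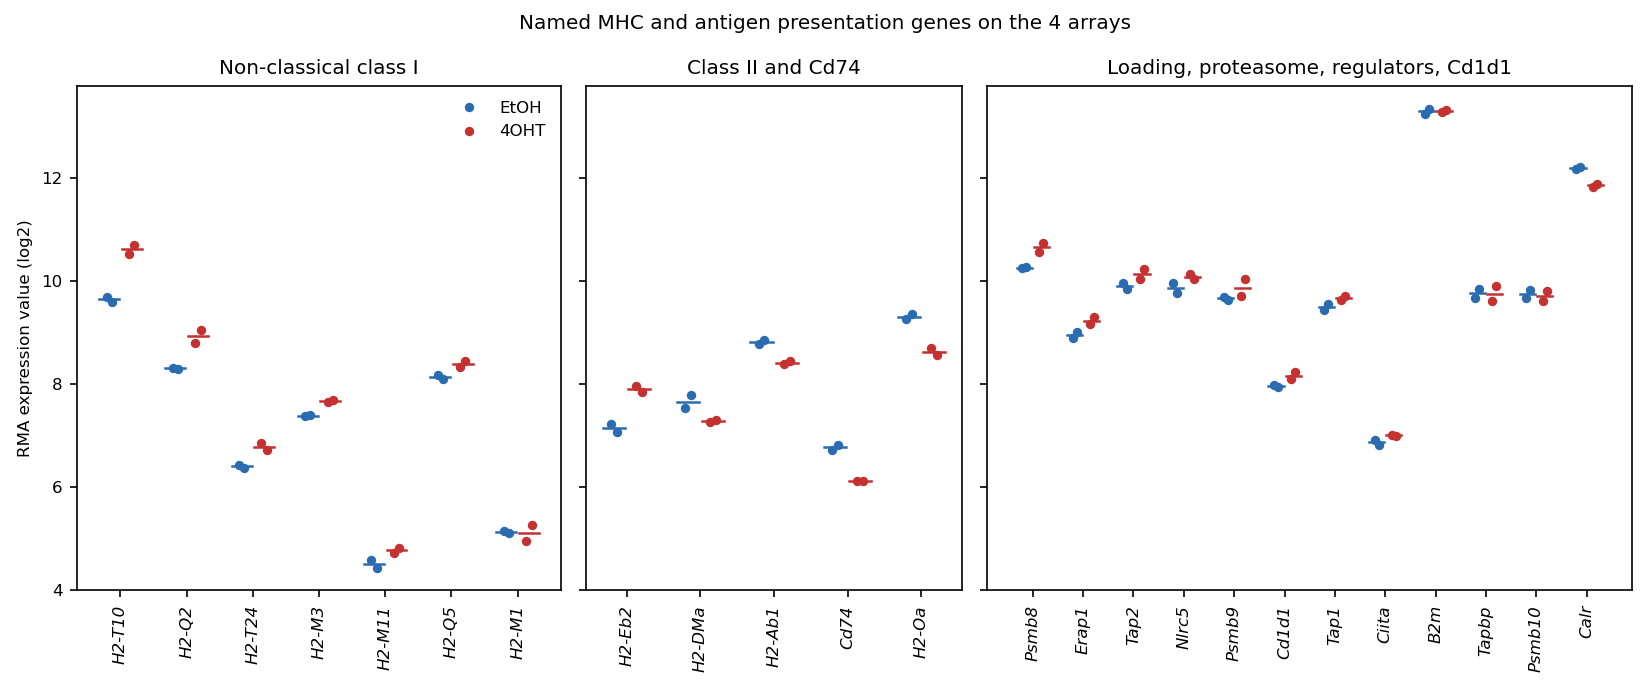
Log2 expression value (y axis) of the named members on each array, EtOH in blue and 4OHT in red. Each point is 1 array and each short line is the mean of 2 arrays. H2-T10, H2-Q2 and H2-Eb2 sit higher with 4OHT, H2-Oa and Cd74 sit lower, and B2m overlaps, while heights of different genes cannot be compared.

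The probe sets that name several H2 genes add to this picture without telling their genes apart. The probe set of H2-T3 and H2-T18 read 7.80 and 7.72 with EtOH and 8.69 and 8.77 with 4OHT (log2 fold change 0.97, adjusted p = 0.0156). That of H2-T-ps and H2-T23 read 9.36 and 9.45, then 10.23 and 10.33 (0.88, adjusted p = 0.0189). That of H2-T9, H2-T22 and H2-T10 read 10.56 and 10.61, then 11.24 and 11.57 (0.82, adjusted p = 0.0526). On all 3 the 4OHT arrays lay above the EtOH arrays, and the first 2 passed the test, 2 of 8 shared H2 probe sets, against 1.67% of 1621 probe sets with several symbols that were called higher.

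The 2 probe sets shared by the classical class I genes did not pass the test. The probe set listed first for H2-D1, with LOC547349 and H2-K1, read 8.76 and 8.60 with EtOH and 8.88 and 8.93 with 4OHT (0.23, 95% interval -0.00518 to 0.463, adjusted p = 0.279). The one listed first for H2-K1, with the same names, read 7.60 and 7.49, then 7.34 and 7.44 (-0.15, 95% interval -0.374 to 0.0715, adjusted p = 0.419). The estimates had opposite signs. The shared probe sets of H2-Q1 and H2-Bl (0.18), of H2-DMb2 and H2-DMb1 (0.15) and of H2-Q6 and H2-Q8 (0.09) did not pass either.

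The higher H2-T values lay close together on chromosome 17. In the RefSeq gene order of GRCm38.p6, 8 entries ran from H2-T24 to the probe set of H2-T3 when each shared probe set was placed at the first of its named genes with a listed position. Of these, 3 were higher, H2-T10 and both shared probe sets that passed, against 1.23% of all genes and 1.67% of probe sets with several symbols. The ends of the stretch were set at H2-T entries, so its closeness followed from the choice of genes. The H2-T genes are close copies, so these 3 may not be separate signals. The other 5 did not pass. The 5 included Gm6034 (0.17) and 2410017I17Rik (0.20), which are not H2 genes. From the first to the last member on the chromosome there were 164 measured genes, 34 of them members. Of the other 130, 0 were called higher and 2 lower, Ddr1 (-0.79) and 2300002M23Rik (-0.91). Over all genes, 1.23% were called higher and 2.99% lower.

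**Figure D3:**
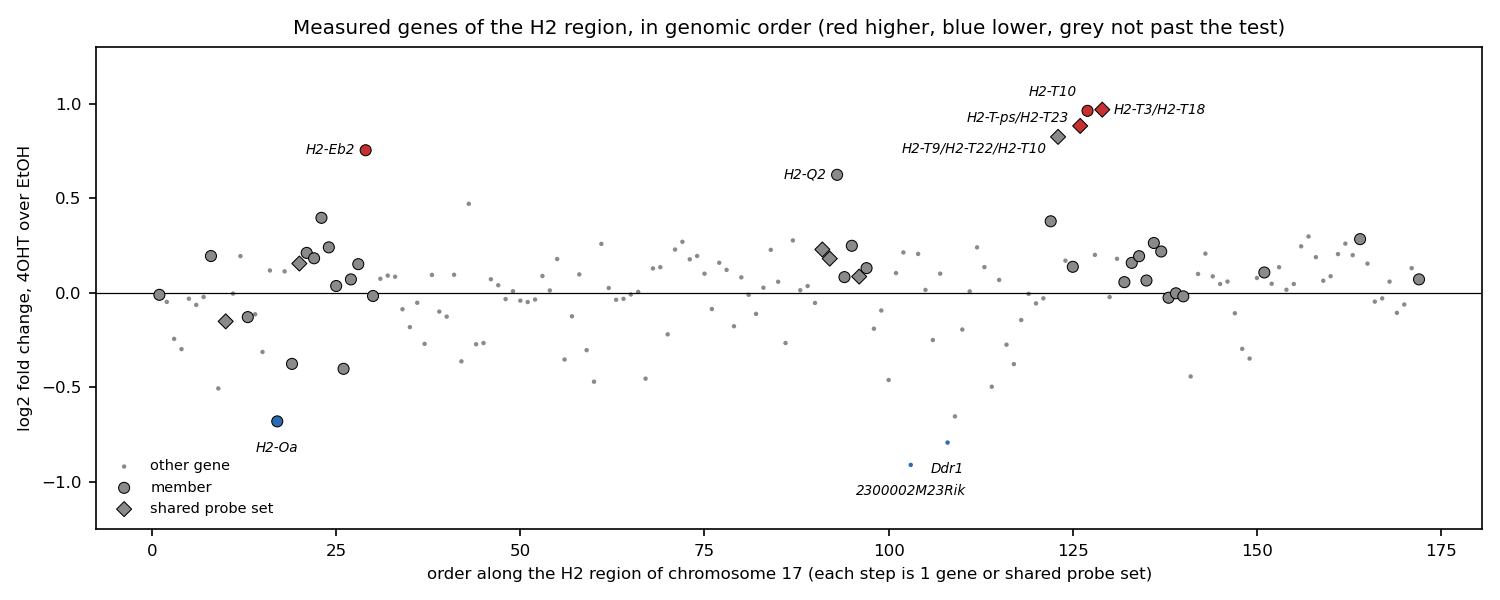
Log2 fold change (y axis, 4OHT over EtOH) of the genes and shared probe sets of the H2 region, in their order along chromosome 17 (x axis, 1 step per gene or probe set, not to distance). Circles are members, diamonds are shared probe sets and dots are other genes, with red higher, blue lower and grey not past the test. The H2-T entries at 0.82 to 0.97 stand together, H2-Eb2 and H2-Oa lie apart from them, and a shared probe set has 1 place although its genes have several.

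Among the class II genes, H2-Oa fell and H2-Eb2 rose. H2-Oa, the alpha chain of the H2-O molecule that restrains peptide loading, read 9.26 and 9.35 with EtOH and 8.70 and 8.56 with 4OHT. The log2 fold change was -0.68 (SE 0.089, adjusted p = 0.0368), 1.60-fold lower, with no overlap of the arrays. Its partner H2-Ob overlapped between treatments (0.04). H2-Eb2, a second beta chain gene of the E molecule, read 7.24 and 7.07 with EtOH and 7.96 and 7.86 with 4OHT. Its log2 fold change of 0.75 (SE 0.094, adjusted p = 0.0342) was a 1.69-fold increase, and its neighbour H2-Eb1 (0.15) did not pass.

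Of the chains that form the A molecule, H2-Ab1 read 8.77 and 8.86 with EtOH and 8.38 and 8.45 with 4OHT (-0.40, adjusted p = 0.0825), and H2-Aa overlapped at a low level of 5.27 to 5.50 (0.07). H2-DMa, of the peptide-loading H2-DM, stood at -0.38 (adjusted p = 0.168), and H2-Ea, which RefSeq lists as a transcribed pseudogene, at -0.02. In all, 1 of 8 class II genes rose, 1 fell and 6 did not pass, against 1.23% higher and 2.99% lower of all genes. Both 4OHT arrays lay above both EtOH arrays for 1 gene and below them for 3, with 4 overlapping. Of all genes, 32.1% lay above and 24.5% below. An unadjusted p under 0.05 in limma was found for 4 of the 8, against 20.4% of all genes. The class II median of 0.01 and mean of -0.06 had opposite signs.

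Cd74, the invariant chain, read 6.72 and 6.82 with EtOH and 6.12 and 6.13 with 4OHT. Both 4OHT arrays lay below, the log2 fold change was -0.65 (SE 0.077, adjusted p = 0.0313), a 1.57-fold decrease, and all 4 values were under the array medians. Cd1d1, which presents lipids to natural killer T cells, read 7.99 and 7.95, then 8.09 and 8.23 (0.19, adjusted p = 0.317). Ciita, the class II coactivator, lay between 6.82 and 7.02 on the 4 arrays (0.14, adjusted p = 0.429). The arrays of both did not overlap but neither gene passed.

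Markers of the cells that normally carry class II mostly lay below the array medians in both treatment means. This held for all 4 measured B-cell markers, all 6 dendritic markers, 4 of 5 macrophage markers and 3 of 5 thymic epithelial markers. It also held for 9118 of all 19938 genes. The exceptions were Cd68 (mean 8.55 with EtOH and 8.39 with 4OHT), Krt8 (7.61 and 7.53) and Aire (7.58 and 7.77). Mean levels per array were 5.68 to 5.91 for the B-cell list, 6.06 to 6.24 for the dendritic list and 6.67 to 6.77 for the epithelial list. The macrophage list averaged 6.45 and 6.41 with EtOH and 6.17 and 6.15 with 4OHT. In it Lyz2, lysozyme of myeloid cells, fell from 6.75 and 6.84 to 5.60 and 5.53 (-1.24, adjusted p = 0.0104). The other 4 did not pass and had both signs, at -0.22 for Cd14, -0.16 for Cd68, 0.11 for Adgre1 and 0.15 for Csf1r. Cd79b (0.27), Xcr1 (0.28) and Epcam (0.20) had the largest changes of the other lists and did not pass, in which limma called none and 1 B-cell, 1 dendritic and 0 epithelial markers had an unadjusted p under 0.05. Lyz2 moved in the same direction as Cd74 and H2-Oa, and the part of other cells in those decreases was not tested. In such bulk RNA, fewer cells of a type and less RNA per cell cannot be told apart.

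None of the 10 genes of the class I machinery passed the test in limma, and 4 had an unadjusted p under 0.05, against the 20.4% of all genes. B2m, the light chain of class I, read 13.24 and 13.34 with EtOH and 13.27 and 13.31 with 4OHT, with a log2 fold change of 0.00 and a 95% interval of -0.199 to 0.205. Of the immunoproteasome subunits, Psmb8 read 10.24 and 10.26, then 10.56 and 10.74 (0.40, adjusted p = 0.116), and Psmb9 read 9.68 and 9.64, then 9.71 and 10.03 (0.21, adjusted p = 0.445). Both had 4OHT arrays above the EtOH arrays, and the third subunit, Psmb10, overlapped (-0.04).

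The transporter genes gave values of the same sign. Tap1 read 9.43 and 9.55 with EtOH and 9.63 and 9.72 with 4OHT (0.18, adjusted p = 0.344), and Tap2 read 9.96 and 9.84, then 10.05 and 10.24 (0.24, adjusted p = 0.312). Erap1, the peptidase that trims peptides in the endoplasmic reticulum, stood at 0.27 (adjusted p = 0.217). Tapbp, tapasin, overlapped (-0.01), and the chaperone Calr read 12.17 and 12.21, then 11.83 and 11.88 (-0.34, adjusted p = 0.101). The oxidoreductase Pdia3 stood at -0.20. Over the 10 genes, 5 had 4OHT arrays above, 2 below and 3 overlapping, against 32.1% above and 24.5% below of all genes. The median was 0.09, against 0.03 for all genes.

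Nlrc5, the class I coactivator, was read by 19 probe sets of its own, of which the brightest stands for the gene. That one read 9.96 and 9.77 with EtOH and 10.14 and 10.03 with 4OHT (0.22, adjusted p = 0.338). All 19 fold changes were positive, from 0.03 to 0.22, against 57.7% of all genes. However, limma called none, and none had an unadjusted p under 0.05. Both 4OHT arrays lay above both EtOH arrays on 10 and overlapped on 9, against 32.1% of all genes above. Probe sets of 1 gene are measured on the same 4 RNA samples and are not replicates. H2-Ke6 overlapped between treatments (-0.13, adjusted p = 0.524).

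Related genes outside the members were read from lists of the pathway. Of 7 other loading and folding factors, Tapbpl rose and 6 did not pass, against 1.23% of all genes called higher and 2.99% lower. An unadjusted p under 0.05 in limma was found for 4 of the 7, against 20.4% of all genes. Tapbpl, the tapasin-related peptide editor also known as TAPBPR, read 8.49 and 8.70 with EtOH and 9.48 and 9.70 with 4OHT (1.00, SE 0.12, adjusted p = 0.0333), without overlap. None of the 19 genes of the constitutive proteasome and its activators passed, and 1 had an unadjusted p under 0.05 in limma, against the 20.4% of all genes. The largest change was that of Psme1 (-0.31, adjusted p = 0.147). None of 11 measured transcription factors of MHC genes passed either, with 2 under an unadjusted p of 0.05, and the largest change was that of Irf1 (0.41, adjusted p = 0.193), an activator of class I and immunoproteasome genes.

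Of 10 genes of interferon receptor signalling, 2 rose and 8 did not pass, against 1.23% of all genes called higher and 2.99% lower. In limma, 4 of the 10 had an unadjusted p under 0.05, against 20.4% of all genes. Ifngr1, the ligand-binding chain of the interferon-gamma receptor, read 10.40 and 10.27 with EtOH and 11.29 and 11.12 with 4OHT (0.87, adjusted p = 0.0268). Socs1, which inhibits signalling from this receptor, read 8.50 and 8.86, then 9.70 and 9.98 (1.16, adjusted p = 0.0432). On both genes the 4OHT arrays lay above the EtOH arrays. That held for 6 of the 10 genes, while 3 lay below, against 32.1% and 24.5% of all genes.

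Of 8 endosomal proteases and turnover factors of class II, 1 fell and 7 did not pass, against 2.99% of all genes called lower. An unadjusted p under 0.05 in limma was found for 4 of the 8, against 20.4% of all genes. Ifi30, the lysosomal thiol reductase that prepares antigen for class II, read 9.58 and 9.57 with EtOH and 9.07 and 9.02 with 4OHT (-0.53, adjusted p = 0.0392). Of 7 measured MHC-like genes encoded outside H2, 1 rose and 1 fell, against 1.23% and 2.99% of all genes. In this list 3 of the 7 had an unadjusted p under 0.05 in limma. Mr1, which presents vitamin B metabolites to mucosal-associated invariant T cells, read 10.33 and 10.46, then 11.64 and 11.62 (1.24, adjusted p = 0.0107). Hfe, the class I-like regulator of iron uptake, read 7.45 and 7.82, then 6.37 and 6.53 (-1.19, adjusted p = 0.0345). The arrays of Ifi30, Mr1 and Hfe did not overlap. Both 4OHT arrays lay above both EtOH arrays for 2 of the 8 endosomal genes and below them for 4. For the 7 MHC-like genes these counts were 3 and 1. Of all genes, 32.1% lay above and 24.5% below.

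**Figure D4:**
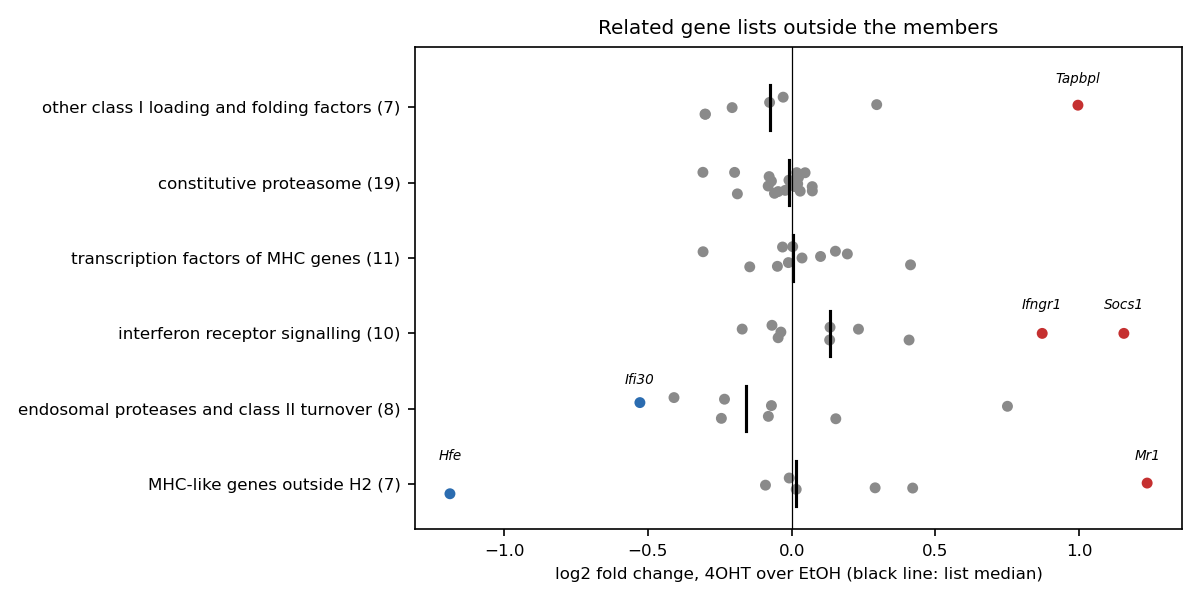
Log2 fold change (x axis, 4OHT over EtOH) of the measured genes of 6 related lists (rows, with the number of genes), none of them members. Each point is 1 gene, spread vertically only to be seen, red and blue points passed the test, and the black line is the list median. Mr1, Socs1, Tapbpl and Ifngr1 lie at 0.87 or more, and Hfe and Ifi30 at -1.19 and -0.53.

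The 4 member calls rest on few arrays. Without EtOH array 1, EtOH array 2, 4OHT array 1 or 4OHT array 2 in turn, adjusted p was 0.145, 0.1697, 0.0449 and 0.0766 for H2-T10, and 0.144, 0.184, 0.0978 and 0.0940 for H2-Eb2. It was 0.177, 0.207, 0.0726 and 0.109 for H2-Oa, and 0.154, 0.185, 0.0940 and 0.102 for Cd74, so each call ended in every case but that of H2-T10 without 4OHT array 1. With the replicate numbers as a block, adjusted p was 0.0891, 0.0849, 0.112 and 0.0988 for H2-T10, H2-Eb2, H2-Oa and Cd74. Of the 43 members, 31 read higher on 4OHT array 2 than on 4OHT array 1. The median difference over all 43 members was 0.0854, against 0.0272 for all genes, and the part of this offset in the results was not tested.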

How the data were processed

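RNA of ILC87-Ik1-ER cells was hybridised to Affymetrix Mouse Gene ST 1.0 arrays. The authors deposited log2 values per probe set, which the labels attribute to RMA (background correction, quantile normalisation and median summary) in Expression Console 1.1. Quantile normalisation is meant to remove array-wide shifts. Small ones remained, with array medians of 7.114 to 7.163 and a median log2 fold change of 0.03 over all genes. Of 35556 probe sets, 21789 had 1 symbol, 1621 several and 12146 none in GEO's platform annotation, with 21698 symbols matched to RefSeq by Entrez number. A gene was its 1-symbol probe set with the highest mean. The deposited log2 values were fitted with limma 3.58.1 in R 4.3.3 (4OHT minus EtOH, no block, two-sided, empirical Bayes, 2 residual degrees of freedom), with Benjamini-Hochberg adjustment over all probe sets, and the fit was tested on simulated data. The number of arrays limits the precision. An exact permutation test of 2 against 2 arrays cannot go below p = 0.33. Nothing says that the arrays came from separate cultures, so the spread behind the p-values may be technical. The members and lists were chosen with earlier results of these data known. Named were members that passed. H2-K1, H2-D1, B2m, Tap1, Tap2, Tapbp, Psmb8, Psmb9, Psmb10, Nlrc5, Ciita, Cd74 and Cd1d1 were named whatever their values. Further named were the largest change of each group in each direction and up to 8 more members with arrays apart. In each list those that passed (up to 4) or the largest change were named. Pdia3, H2-Aa, H2-Ea, H2-Eb1, H2-Ob, the other genes of the H2 region and 4 macrophage markers were named after their values were seen. Alternatives were the replicate block, renormalisation, an expression filter, other probe set rules, an intensity trend, a stricter threshold and leaving out each array.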

Additional observations from a re-analysis of the deposited data

How the results depend on the processing

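The log2 fold changes of the named members that passed were followed over the 11 alternatives that give them a value. They were 0.87 to 1.06 for H2-T10, 0.67 to 0.84 for H2-Eb2, -0.75 to -0.61 for H2-Oa and -0.70 to -0.60 for Cd74. Only renormalisation could have changed their signs. The block, the filter, the probe set rules and the intensity trend leave these estimates as they are. Leaving out 1 array cannot turn a sign where the arrays of the treatments do not overlap. The calls of these members held less well. Against 2 members higher and 2 lower, 246 genes higher and 597 lower, the replicate block gave 0, 0, 5 and 25. The deviations of same-numbered arrays correlated at -0.134, so the samples may share only a number. With the replicate block and the numbers crossed, chosen after seeing the data, the counts were 1, 1, 146 and 389. Adjusting over probe sets with 1 symbol only gave 6, 5, 1002 and 1739, with Psmb8, H2-M3, H2-Q2 and H2-T24 added to the higher members and H2-Ab1, H2-DMa and Calr to the lower ones. An adjusted p under 0.01 gave 0, 0, 14 and 59. Leaving out 1 array gave 0 to 1 members higher, 0 to 0 lower, 0 to 63 genes higher and 0 to 178 lower, the counts of 0 genes being those without EtOH array 1 or EtOH array 2, where limma gave 2819 and 2586 genes an unadjusted p under 0.05. An unadjusted p under 0.05 was found for 16 members and 4069 genes with all arrays, for 11 members without EtOH array 1 and 11 without EtOH array 2, for 14 members and 2964 genes without 4OHT array 1, for 10 members and 3166 genes without 4OHT array 2, and for 12 members and 3275 genes with the replicate block. In such fits the lone array is assumed to vary like the pair. H2-Q2 passed also with the filter at a mean of 6, which gave 3 members higher, and Calr with the intensity trend, which gave 3 lower. The calls of Tapbpl, Mr1, Hfe, Ifi30, Socs1 and Ifngr1 ended with the replicate block and without either EtOH array, at adjusted p up to 0.211. All but Mr1 also ended without 4OHT array 1 and without 4OHT array 2 (0.0584 to 0.128), Mr1 ended without 4OHT array 2 (0.0605) but not without 4OHT array 1 (0.0389), and Ifi30 ended under quantile renormalisation (0.0513). Cd3d ended with the block and without each array (0.0533 to 0.153), and Lyz2 with the block (0.0591) and without each array but 4OHT array 1 (0.0590 to 0.133, against 0.0365). The 3 shared H2-T probe sets stayed between 0.66 and 1.01 over 9 settings. The calls of the 2 that passed, that of H2-T3 and H2-T18 and that of H2-T-ps and H2-T23, ended in several of these settings. Renormalisation by quantiles or medians and averaging all probe sets of a gene left 2 members called in each direction. Without detection calls, dim genes such as H2-Aa and the H2-M10 family may not be measurable at all.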
